A study of Mus musculus with 24 samples.

Results

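The cytosolic ribosome is built from ribosomal RNA and a fixed set of proteins, which are named Rpl in the large subunit and Rps in the small subunit. The genes that encode them were followed across 3 subsets of splenic regulatory T cells (Treg cells) in young and old mice. A gene was a member when its symbol began with Rpl or Rps and a digit, or was Rplp0, Rplp1, Rplp2 or Rpsa. Symbols containing -ps (pseudogenes), the kinases Rps6k, and Rps27l, Rps19bp1 and Rpl7l1 were left out. The rule found 87 genes of the 17464 listed, 52 named Rpl and 35 named Rps (the rule uses symbols and no measured value). The annotation types 83 of them as protein-coding and the other 4 as processed pseudogenes (Rpl6l, Rpl37rt, Rps3a2 and Rps3a3), which the rule on symbols keeps. Of the 87, 10 are copies or minor forms of another subunit gene (Rpl22l1, Rpl36al, Rpl39l, Rpl6l, Rpl35rt, Rpl37rt, Rps27rt, Rps3a2, Rps3a3 and Rps4l).

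Bulk RNA-seq was made from spleens of wild-type C57BL/6JRccHsd mice aged 2 months (young, 4 mice) or 26 months (old, 4 mice), with no treatment named in the labels. By the series' design each mouse gave resting Treg cells (rTreg, sorted as CD62L+ CD44-), activated Treg cells (aTreg, CD62L- CD44+) and KLRG1+ Treg cells (kTreg), so there were 6 groups of 4 libraries. KLRG1 is a lectin-like inhibitory receptor found on highly differentiated lymphocytes. The design asks how these subsets differ from one another and with age.

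Ribosomal protein genes are among the most highly expressed genes of a cell, and their products are needed in near-equal amounts. Many of their mRNAs begin with a C followed by a run of pyrimidines, the 5' terminal oligopyrimidine tract, through which mTORC1 and the RNA-binding protein LARP1 regulate their translation and stability. Resting lymphocytes are small and make few ribosomes, and ribosome production rises when T cells are activated.

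The genomic sequence around the RefSeq start (GRCm38.p6 build) was searched for such runs within 50 bases either side. A tract was a C followed by at least 7 bases that are each C or T on the gene's own strand. Of the 62 members with a RefSeq start, 51 held such a tract (82.3%), against 3269 of 10109 protein-coding genes of the table (32.3%). This is a match of letters and not a mapped start. Windows of 30 bases are given for 6 members named in the results below, with the tract in capitals. They lie at chr9:64173405-64173434 (+) for Rpl4, chr2:26910789-26910818 (+) for Rpl7a, chr4:86857349-86857378 (-) for Rps6, chr11:114668569-114668598 (+) for Rpl38, chr17:33955648-33955677 (-) for Rps18 and chr7:141447636-141447665 (+) for Rplp2.
Rpl4: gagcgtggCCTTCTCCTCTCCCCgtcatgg
Rpl7a: acaattCCCTCTTCTTTCTTTCTCCagcag
Rps6: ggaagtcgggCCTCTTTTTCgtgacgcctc
Rpl38: gaagcctcgttCTTTCCCCgttctcttcgg
Rps18: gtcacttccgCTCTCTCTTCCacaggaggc
Rplp2: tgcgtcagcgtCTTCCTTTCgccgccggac

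The libraries held 15045747 to 29521942 reads on listed genes, of which 192521 to 829335 fell on members. The values below are the deposited ones, read counts divided by a size factor per library. Foxp3, which defines Treg cells, was at 5079 to 37790 in all 24 libraries, and Klrg1 was at 16559 to 41561 in the kTreg libraries and at 0.694 to 357.5 elsewhere. Some libraries stood apart. Young kTreg replicate 4 had 4913 listed genes at 0, the most of any library. The summed level of 7 Treg markers was lowest of all in old aTreg replicate 2 (58500, against 83410 to 93080 in the other old aTreg libraries). Markers of some other cell types were higher in old than in young rTreg cells. The summed level of 5 macrophage and monocyte markers was 10180 to 26400 against 574.3 to 8113, and of 4 plasma cell markers 3203 to 9574 against 115.4 to 1343. That of 3 platelet markers was 450.6 to 981 against 42.2 to 73.8, and Itga2b alone held 963.7 of the 981 (old rTreg replicate 3). Pf4 and Ppbp reached at most 34.2 and 198.2 in any library. CD8 T cell sums were lower in old rTreg cells (295 to 554.3 against 566.1 to 2185), and B cell, neutrophil and erythroid sums overlapped. The replicate 2 libraries of young mice had the highest B cell marker sums (15200 in rTreg, 8260 in aTreg and 6664 in kTreg cells) and, among young libraries, the highest macrophage and monocyte sums (8113, 2844 and 19620, against 0 to 1276 in the others), while the defining B cell gene Pax5 was at 0 in 14 of 24 libraries.

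The mean share of reads on members was highest in young rTreg cells. The share was 2.72, 2.37, 3.03 and 2.21% in the 4 young rTreg libraries, 2.12, 1.51, 1.98 and 1.54% in young aTreg cells and 1.24, 1.07, 1.16 and 1.78% in young kTreg cells. It was thus 2.58% ± 0.367 (SD, n = 4), 1.78% ± 0.308 and 1.31% ± 0.321 in these 3 groups, and every young rTreg library lay above every other young library. In old mice the share was 1.41, 1.57, 2.81 and 1.79% in rTreg cells, 1.71, 2.26, 1.48 and 1.56% in aTreg cells and 1.37, 1.16, 1.32 and 1.28% in kTreg cells. The old kTreg libraries lay below all other old libraries and close together (1.28% ± 0.089), whereas the old rTreg (1.90% ± 0.629) and old aTreg (1.75% ± 0.352) libraries overlapped. A single library, replicate 3, held the high end of old rTreg cells, and it also held that group's highest macrophage and plasma cell marker sums (26400 and 9574), whose part in its share was not tested. In old aTreg cells the high end was held by replicate 2, the library with the lowest Treg marker sum (58500), and the part of this was not tested either. These are sorted bulk samples, so fewer cells of one type and less RNA per cell cannot be told apart.

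**Figure D1:**
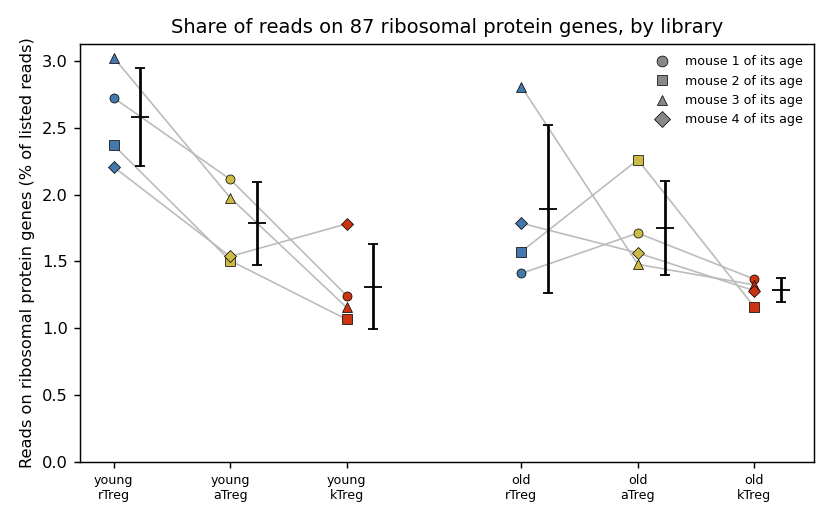
Reads on the 87 ribosomal protein genes as a percentage of reads on listed genes (y axis) in each library, with symbols for the mice, lines joining the 3 subsets of a mouse, and bars for the mean ± SD of 4 libraries. The young rTreg libraries (2.21 to 3.03%) sit above all other young libraries, and the old kTreg libraries (1.16 to 1.37%) sit below all other old libraries.

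All 87 members passed the filter on low values (at least 10 in at least 4 libraries) along with 16630 genes in all. Differences were fitted with limma on log2(value + 1) over all these genes, and calls were made where p, adjusted over all genes by the Benjamini-Hochberg method, was under 0.05. A fold change is a difference on that scale, which understates the change of the lowest members, Rps4l and Rpl39l.

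The most members were called between young kTreg and young rTreg cells. In this comparison 76 of 87 members fell and none rose, where 9.33% of all genes tested fell. The median log2 fold change of the members was -0.98, against -0.14 over all genes, with a range from -1.37 (Rps18, a small-subunit head protein) to 0.20 and 85 members below 0. Without young kTreg replicate 4 the count was 80, and without the replicate 2 libraries of young rTreg or young kTreg cells it was 76 and 65. Both subunits took part, with 46 of 52 Rpl genes (median -0.93) and 30 of 35 Rps genes (median -1.04) called lower. The median was -0.99 with edgeR's TMM scaling and with size factors taken from genes other than the members. When the libraries were instead set to equal medians of the members, it became -0.07 by construction while the median of all genes moved to 0.75, and 3 members were called higher and 7 lower.

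Rpl4, a large-subunit protein near the exit tunnel, was the member called in most comparisons, 6 of 12, and 7 of 117 windows of its coding sequence (100 bases each) also occur in another annotated gene. Its gene lies at chr9:64080618-64086351 on the plus strand (GRCm39). Its values were 33008, 29550, 36991 and 29738 in young rTreg cells, 25347, 20951, 22933 and 21612 in young aTreg cells, and 16458, 14128, 14350 and 17867 in young kTreg cells. No young group overlapped another, with rTreg highest and kTreg lowest. Its log2 fold change between young kTreg and rTreg cells was -1.04 ± 0.117 (SE; limma adjusted p = 1.21e-06).

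Rpl3, which lines the peptidyl transferase centre, was called in 4 comparisons. It was at 14860, 14738, 14732 and 12536 in young rTreg cells, 11759, 9316, 10287 and 9047 in young aTreg cells, and 7888, 6869, 7031 and 8116 in young kTreg cells. These 3 groups did not overlap either. The log2 fold change of young kTreg against rTreg cells was -0.93 ± 0.12 (limma adjusted p = 7.89e-06). The third gene by p in this comparison was Rps3a2, a copy of the small-subunit gene Rps3a1 that the annotation types as a processed pseudogene (-1.14 ± 0.172, limma adjusted p = 4.95e-05). Rps3a1 itself changed by -1.10 ± 0.171 (limma adjusted p = 6.5e-05).

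**Figure D2:**
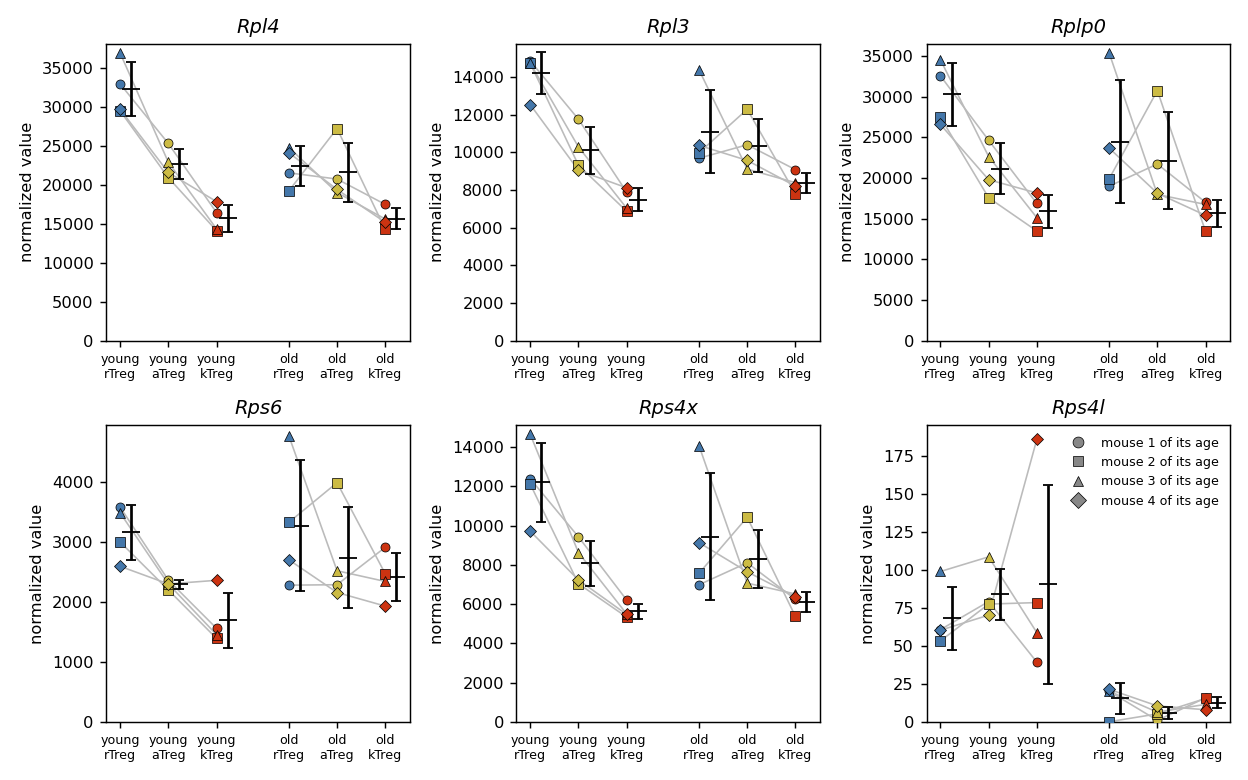
Normalized values (y axes, linear and starting at 0) of 6 members in each library, with symbols for the mice, lines joining the subsets of a mouse, and bars for the mean ± SD of 4 libraries. Rpl4 and Rpl3 step down from rTreg to aTreg to kTreg cells in young mice without overlap, and Rps4l lies at 39.2 or above in all young libraries and at 21.3 or below in all old ones.

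The stalk proteins, which recruit the GTPase elongation factors, fell together in young kTreg against young rTreg cells. Rplp0, the stalk base, was at 32562, 27469, 34547 and 26583 in young rTreg cells and at 16860, 13472, 15111 and 18148 in young kTreg cells, which did not overlap. Its log2 fold change was -0.93 ± 0.18 (limma adjusted p = 0.000784), beside -0.84 ± 0.273 for Rplp1 and -0.96 ± 0.276 for Rplp2 (limma adjusted p = 0.0352 and 0.0174). In young kTreg replicate 4, Rplp2 reached 3104 against 1435 to 1726 in the other young kTreg libraries and 2986 to 5107 in young rTreg cells, so that these groups overlapped. Rpsa, a small-subunit protein also described as the laminin receptor, fell by 0.89 ± 0.206 on the log2 scale (limma adjusted p = 0.00367).

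Of 11 members with known roles in signalling or apart from the ribosome, 10 fell in the same comparison. This lay near the share of all members, 76 of 87, where 9.33% of all genes fell. Rpl5, Rpl11 and Rpl23 bind MDM2 and thereby stabilize p53, and they changed by -1.12 ± 0.21, -0.72 ± 0.227 and -1.07 ± 0.208 (limma adjusted p = 0.000561, 0.0296 and 0.000776). Rps6, the S6 kinase substrate used to read mTORC1 activity, was at 3581, 3000, 3486 and 2594 in young rTreg cells and at 1559, 1389, 1453 and 2360 in young kTreg cells, without overlap (-0.93 ± 0.213, limma adjusted p = 0.00347). Rps27a, which encodes ubiquitin fused to a small-subunit protein, changed by -1.11 ± 0.253 (limma adjusted p = 0.00326).

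Rps3, which has been linked to DNA repair and NF-kappaB, changed by -0.90 ± 0.208, and Rpl13a, part of the complex that silences translation after interferon gamma, by -0.82 ± 0.256 (limma adjusted p = 0.00365 and 0.0274). Rpl10a and Rps25, which have been studied for selective translation, changed by -0.98 ± 0.211 and -1.23 ± 0.278 (limma adjusted p = 0.00198 and 0.00307). Rpl38, known for translating Hox mRNAs, did not pass (-0.54 ± 0.298, limma adjusted p = 0.22). It was at 1204, 1058, 1521 and 958 in young rTreg cells and at 723, 591, 672 and 1441 in young kTreg cells, where only replicate 4 reached the rTreg range.

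The 11 members that were not called between young kTreg and rTreg cells were Rpl22l1, Rpl36al, Rpl38, Rpl39, Rpl39l, Rpl41, Rps12, Rps13, Rps27, Rps29 and Rps4l. Of the 77 canonical members 70 were called lower (median -0.98), and of the 10 copies or minor forms 6 (median -0.83). Rpl22, needed for the development of alpha-beta T cells, fell by 0.82 ± 0.241 on the log2 scale (limma adjusted p = 0.0199), and its paralog Rpl22l1 changed by -0.64 ± 0.291 (limma adjusted p = 0.136). Rpl36a fell (-1.12 ± 0.269, limma adjusted p = 0.00477), while Rpl36al was at -0.58 ± 0.218 (limma adjusted p = 0.0675). Rps27rt fell (-1.12 ± 0.263, limma adjusted p = 0.00413) and Rps27 was at -0.72 ± 0.31 (limma adjusted p = 0.112). Whether the members of such a pair differed from each other was not tested. Rpl39 was at -0.65 ± 0.261 (limma adjusted p = 0.0881), and Rpl39l, at 30.2 or less in every library, at 0.11 ± 1.02 (limma adjusted p = 0.955).

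Young aTreg cells lay between the other young subsets. Of the 87 members 6 fell between young aTreg and young rTreg cells (among them Rpl3, Rpl4, Rpl23a, Rps3a1 and Rps26), where 0.950% of all genes fell, and 61 had an unadjusted p below 0.05. The median of the members was -0.57, against 0.02 over all genes, and 85 members were below 0. Rpl4 changed by -0.51 ± 0.117, Rpl3 by -0.50 ± 0.12 and Rpl23a, which sits beside the exit tunnel, by -0.81 ± 0.208 (limma adjusted p = 0.0135, 0.0191 and 0.0274). Rpl23a was at 2600, 1947, 2917 and 1807 in young rTreg cells and at 1775, 1044, 1374 and 1110 in young aTreg cells, which did not overlap. The count of 6 depended on single libraries. It was 0 without young rTreg replicate 3 or young aTreg replicate 2, 1 without young rTreg replicate 1 or young aTreg replicate 4, and 2 without young aTreg replicate 3. It was 10 without old rTreg replicate 1, 11 without young aTreg replicate 1 or old aTreg replicate 2, 19 without old rTreg replicate 3 and 22 without young kTreg replicate 4.

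Between young kTreg and young aTreg cells 3 members fell (Rpl3, Rpl4 and Rpl7a), where 4.27% of all genes did, so that the share of members called lay near the background. The median of the members was -0.41, against -0.12 over all genes, 83 members were below 0 and 31 had an unadjusted p below 0.05. Rpl4 changed by -0.54 ± 0.117, Rpl3 by -0.43 ± 0.12 and Rpl7a, which hosts several snoRNAs, by -0.60 ± 0.185 (limma adjusted p = 0.00535, 0.0286 and 0.0473). Rpl7a was at 929, 760.5, 854 and 795 in young aTreg cells and at 558, 513, 479.9 and 659 in young kTreg cells, all of which lay lower. With the mouse as a block 5 members were called. The count was 15 without young kTreg replicate 4 or without old rTreg replicate 3, 6 without old aTreg replicate 2, and 1 without young aTreg replicate 1 or 3 or young kTreg replicate 2 or 3.

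**Figure D3:**
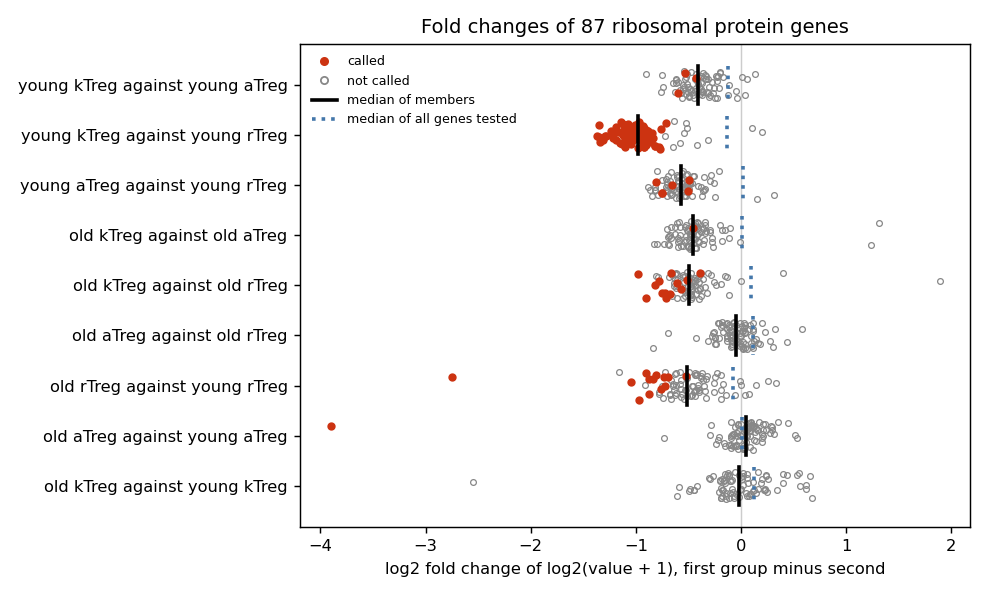
Log2 fold change on the log2(value + 1) scale (x axis, first group minus second) of each of the 87 members in 9 comparisons (rows), with filled points for called members, black bars for the median of the members and dotted bars for the median of all 16630 genes tested. In young kTreg against rTreg cells 76 members are filled and their median is -0.98, and Rps4l lies apart at -3.90, -2.75 and -2.55 in the 3 comparisons of old with young cells.

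In old mice the members' median was again below 0 in kTreg against rTreg cells. Old kTreg cells had 13 members lower than old rTreg cells and none higher, where 3.84% of all genes were lower. Among them were Rpl3, Rpl4, Rpl31, Rpl35, Rpl35rt, Rplp0, Rps2, Rps4x, Rps26 and Rps28, and all 13 were also among the 76 of the young comparison. The median of the members was -0.49, against 0.10 over all genes, and 47 had an unadjusted p below 0.05. Summed markers of other cells were higher in old rTreg than in old kTreg cells without overlap for macrophages and monocytes (10180 to 26400 against 1931 to 2872), plasma cells (3203 to 9574 against 258.6 to 2061) and erythroid cells (701.2 to 2116 against 246.6 to 673.8), and their part in this result was not tested. Rpl4 was at 21570, 19243, 24819 and 24157 in old rTreg cells and at 17505, 14284, 15625 and 15202 in old kTreg cells, all of which lay lower (-0.52 ± 0.117, limma adjusted p = 0.00663).

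Rps2, at the mRNA entry site of the small subunit, was at 8515, 10280, 17092 and 11795 in old rTreg cells and at 8042, 6524, 7399 and 7064 in old kTreg cells. The old groups did not overlap, and replicate 3 was the highest rTreg library. Rps2 changed by -0.67 ± 0.18, Rplp0 by -0.61 ± 0.18 and Rps4x, the X-linked S4 protein, by -0.57 ± 0.172 (limma adjusted p = 0.019, 0.0336 and 0.0355). The count of 13 fell to 1 without old rTreg replicate 3 or old kTreg replicate 2, to 4, 5 and 6 without old kTreg replicates 3, 4 and 1, and to 6 without old rTreg replicate 4. It rose to 23 without young kTreg replicate 4 and to 26 without old rTreg replicate 1. It was 2 when only these 2 groups entered the fit, where 547 of 16630 genes were called lower.

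Rpl4 was the sole member lower in old kTreg than in old aTreg cells (-0.45 ± 0.117, limma adjusted p = 0.0403), where 1.03% of all genes were lower. The share of members called, 1 of 87, thus lay near the background. Rpl4 was at 20770, 27271, 19030 and 19433 in old aTreg cells, above all old kTreg libraries. The median of the members was -0.46 against 0.01 over all genes, 85 members were below 0 and 39 had an unadjusted p below 0.05. The call was lost without any of old aTreg replicates 1 or 2, old kTreg replicates 2, 3 or 4, young rTreg replicate 1 or young aTreg replicate 3, and without young kTreg replicate 4 the count was 2. The fit with these 2 groups alone called 16 members, where it called 626 of 16630 genes lower. DESeq2 called 8 members, and the 1.03% above is not its share of all genes.

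Between old aTreg and old rTreg cells limma called no member in either direction and none had an unadjusted p below 0.05, while 4.34% of all genes were lower. The median of the members was -0.05, against 0.11 over all genes, and 51 members were below 0. edgeR and DESeq2 called none. Without old rTreg replicate 2 limma called 1.

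The series' design has the 3 subsets come from the same mice, so differences were also taken within each mouse, with the match inferred from the sample numbers in the titles. The median member was lower in kTreg than in rTreg cells in 8 of 8 mice, by -1.13, -1.11, -1.46 and -0.23 in young mice and by -0.004, -0.42, -1.11 and -0.48 in old mice on the log2 scale. The young mouse with the smallest difference was number 4, whose kTreg library was the one with the most genes at 0 and in which the median of all genes tested was -0.26, lower than that of the members. In the other 7 mice the median of all genes lay between -0.008 and 0.095. In old mouse 1 the difference was smallest, with 45 of 87 members below 0, while old mouse 3 had all 87 below 0.

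Against aTreg cells the median member of kTreg cells was lower in 7 of 8 mice (-0.71, -0.45 and -0.72 in young mice 1 to 3, 0.26 in young mouse 4, and -0.34, -1.09, -0.15 and -0.29 in old mice). In aTreg against rTreg cells it was lower in 4 of 4 young mice (-0.42, -0.69, -0.73 and -0.52) and in 2 of 4 old mice (0.31, 0.66, -1.0 and -0.19). In old mouse 2, 2 of 87 members were below 0 in that difference, and in old mouse 3 all 87 were, so old mice went in opposite directions.

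**Figure D4:**
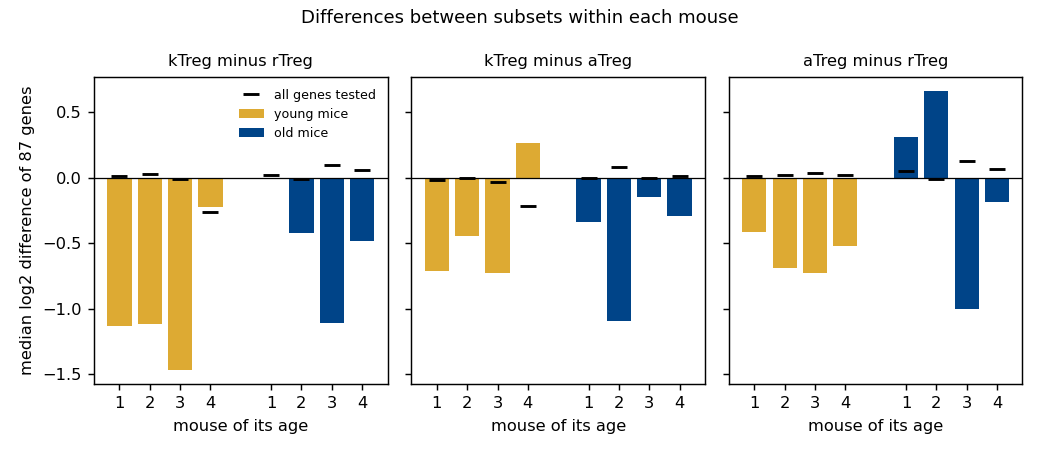
Median over 87 members of the log2 difference between subsets of the same mouse (y axis) for each young and old mouse (x axis), with short black lines for the median of all genes tested. Young aTreg minus rTreg bars lie between -0.42 and -0.73, whereas the old ones run from 0.66 to -1.0.

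The age comparison was also made within each subset. Old rTreg cells had 13 members lower than young rTreg cells and none higher, where 2.16% of all genes were lower, with a median of -0.51 against -0.08 and 47 members at an unadjusted p below 0.05. The comparison shares its young rTreg libraries with the young comparisons above. Besides Rpl4 (-0.53 ± 0.117, limma adjusted p = 0.00753), the lowest p belonged to Rps3a1 and Rps3a2 (-0.73 ± 0.171 and -0.72 ± 0.172, limma adjusted p = 0.0103 and 0.013). The others were Rpl21, Rpl23a, Rpl35, Rpl35rt, Rpl37rt, Rps7, Rps20, Rps27rt, Rps28 and Rps4l. Of the 13, 5 were copies or minor forms (Rpl35rt, Rpl37rt, Rps27rt, Rps3a2 and Rps4l). Other annotated genes hold 16 of 16 sequence windows of Rps27rt, 20 of 20 of Rpl37rt, 56 of 70 of Rps3a2 and 18 of 28 of Rpl35rt. Rpl35 and Rps3a1, which share windows with Rpl35rt and Rps3a2, are themselves among the 13. Whether these calls count the same reads was not tested. Rps3a1 was at 19152, 17168, 22806 and 16196 in young and at 9252, 9258, 15074 and 12273 in old rTreg cells, all of which lay lower.

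This count had the widest range of all when single libraries were left out. It was 55 without old rTreg replicate 3 and 25 without young kTreg replicate 4. It was 1 without young rTreg replicate 3, 3 without young rTreg replicate 1 or old rTreg replicate 2, 6 and 7 without old rTreg replicates 1 and 4, and 8 without old aTreg replicate 1. The summed macrophage, plasma cell and platelet markers listed above moved with the same comparison without overlap, as did the NK cell markers (454.8 to 1444 in old and 130.5 to 358.9 in young rTreg cells), and their part in it was not tested. In old rTreg replicate 3 the platelet sum was nearly all Itga2b.

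Few members were called with age in the other 2 subsets. Old aTreg cells had 1 member of 87 lower than young aTreg cells (Rps4l), where 0.956% of all genes were lower, so that this share lay near the background. The median of the members was 0.05 against 0.01, with 3 members at an unadjusted p below 0.05. Old kTreg cells had no member called against young kTreg cells by limma or edgeR and 1 by DESeq2, where limma called 0.265% of all genes lower. Here 9 members had an unadjusted p below 0.05 and the median was -0.02 against 0.12. Without old rTreg replicate 2 limma called 1.

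Rps4l was the one member that separated the ages in every subset. It is annotated as a retrogene, a copy of an S4 gene, with 1 exon of 1334 bases, at chr6:148256098-148257431 on the plus strand (GRCm39), within the span of Tmtc1 on the other strand. Tmtc1 was not analysed here, and as no source used here states whether counting used strand, reads of such a pair cannot be told apart. Rps4l was at 60.6, 53.2, 98.9 and 60.2 in young rTreg cells, 79.1, 77.4, 108.5 and 70.2 in young aTreg cells and 39.2, 78.4, 58.7 and 185.9 in young kTreg cells. In old mice it was at 20.0, 0, 20.1 and 21.3 in rTreg cells, 0.909, 5.17, 6.30 and 10.4 in aTreg cells and 15.7, 15.3, 11.4 and 7.88 in kTreg cells. The lowest young library (39.2) thus lay above the highest old library (21.3).

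The log2 fold change of Rps4l with age was -3.90 ± 0.777 in aTreg cells (limma adjusted p = 0.00502) and -2.75 ± 0.777 in rTreg cells (limma adjusted p = 0.0346). In kTreg cells it was -2.55 ± 0.777, which did not pass (limma adjusted p = 0.109). The S4 gene Rps4x was at -0.41 ± 0.172, 0.04 ± 0.172 and 0.12 ± 0.172 in rTreg, aTreg and kTreg cells, none of which was called (limma adjusted p = 0.154, 0.992 and 0.737). Rps4l shared 1 of 69 windows of its coding sequence with another annotated gene, and Rps4x shared 31 of 70.

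The difference between ages in a subset comparison was tested itself as an interaction. limma called no member in kTreg against aTreg cells, kTreg against rTreg cells or aTreg against rTreg cells, where 0.156%, 3.05% and 1.58% of all genes were called in either direction. With an unadjusted p below 0.05 there were 0, 14 and 22 members. The median interaction of the members (old minus young difference) was -0.08, 0.49 and 0.54, beside 0.14, 0.21 and 0.10 over all genes. edgeR called none in any of the 3, and DESeq2 called 0, 0 and 1. Without old rTreg replicate 3 the counts for the last 2 were 5 and 4. Without young kTreg replicate 4 each was 1. The kTreg against rTreg count was also 1 without old aTreg replicate 2, and the aTreg against rTreg count was 1 without young rTreg replicate 2, young aTreg replicate 1 or old aTreg replicate 3.

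Members varied together from library to library. After the group means were removed, the median pairwise Pearson correlation between members over 24 libraries was 0.854, and 84 of 87 members correlated above 0.5 with the median of the other members (median r 0.943). The 3 exceptions were Rpl28 (0.43), Rps4l (0.306) and Rpl39l (0.039), which were also the lowest members by level per kb of exon (43.2, 34.5 and 6.05). Among the other genes tested 13.4% correlated above 0.5 with the members' median. All of these points share the libraries, their depth and their size factors. The highest members by level per kb of exon were Rps27rt (10920), Rps3a1 (10280) and Rplp1 (8501). The length used joins all annotated exons of a gene, 374 bases for Rps27rt and 7205 for Rps20, so the ranking depends on the annotation. All 16 windows of the coding sequence of Rps27rt also occur in other annotated genes, so its level is uncertain.

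Ribosomal protein genes have many near-identical copies, and the handling of reads that match several places is not stated in the sources used here. Each coding sequence was therefore cut into windows of 100 bases every 10 bases, which were looked for in the other annotated transcripts. All windows were shared in 25 members, among them Rpl5, Rpl11, Rps6, Rps27, Rps27rt and Rpl38, whose levels are uncertain for this reason. Under 10% were shared in 11 members, among them Rpl4 (7 of 117 windows) and Rpl22 (0 of 29). In young kTreg against rTreg cells the 11 members with under 10% shared had a median of -0.90 and 7 were called lower, and the 25 with all windows shared had a median of -0.98 and 21 were called lower. The 107 tested pseudogene rows of ribosomal proteins with -ps in the symbol had a median of -1.03 and 55 were called lower. Reads on the 115 listed rows of this kind came to between 22.0 and 25.1% of the reads on members in each library. Other listed genes that share windows with members, such as Gm10036 and Gm10288 with Rpl11, are not in this count. The 1976 other genes with a coding sequence of at most 621 bases, a length that covers 3 in 4 members, had a median of -0.23 and 221 were called lower.

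The remaining translation machinery was described from 8 lists. In young kTreg against rTreg cells, where 9.33% of all genes fell, each list had members called lower and no list had its median above 0. Elongation factors fell in 6 of 6 cases (median -0.71), among them Eef1a1, which brings aminoacyl-tRNA to the ribosome (-0.80 ± 0.111), and its exchange factor subunits Eef1g (-0.99 ± 0.131) and Eef1b2 (-1.05 ± 0.186). Among other ribosomal components, the scaffold gene Rack1 fell (-0.81 ± 0.19, limma adjusted p = 0.00385) and Fau was at -0.57 ± 0.251 (limma adjusted p = 0.123).

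Of 14 eIF3 subunits 5 fell (median -0.33), among them Eif3e (-0.77 ± 0.135) and Eif3f (-0.63 ± 0.108), and of 23 other initiation factors 6 did (median -0.30), among them the poly(A)-binding protein gene Pabpc1 (-0.76 ± 0.123) and the helicase gene Eif4a1 (-0.66 ± 0.118). Hosts of small nucleolar RNAs fell in 5 of 11 cases (median -0.89), led by Gas5, itself an mRNA-like RNA with a pyrimidine tract (-0.73 ± 0.132). Of 13 translation control genes 2 fell, Larp1 (-0.74 ± 0.141) and Eif4ebp2, a repressor of eIF4E (-0.83 ± 0.266). Of 34 ribosome biogenesis genes 14 fell (median -0.49), among them the nucleolar chaperone Npm1 (-0.97 ± 0.135) and Nop56, a core box C/D snoRNP protein (-0.88 ± 0.124). Of 78 mitochondrial ribosomal proteins 28 fell (median -0.43), among them Mrpl30 (-1.19 ± 0.187).

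In young kTreg against aTreg cells, where 4.27% of all genes fell, 17 of 34 ribosome biogenesis genes fell (median -0.55), among them Nop56 (-0.82 ± 0.124), Grwd1 (-0.85 ± 0.139) and Npm1 (-0.67 ± 0.135), beside 3 of 87 members. The other lists had 3 of 6 elongation factors, 2 of 14 eIF3 subunits, 4 of 23 other initiation factors, 2 of 11 snoRNA hosts, 1 of 13 translation control genes (Larp1, -0.60 ± 0.141), 8 of 78 mitochondrial ribosomal proteins and 0 of 3 other ribosomal components called lower. In young aTreg against rTreg cells 0 of 34 biogenesis genes were called and their median was 0.04, while the members' median was -0.57. Whether the lists differ from one another was not tested.

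**Figure D5:**
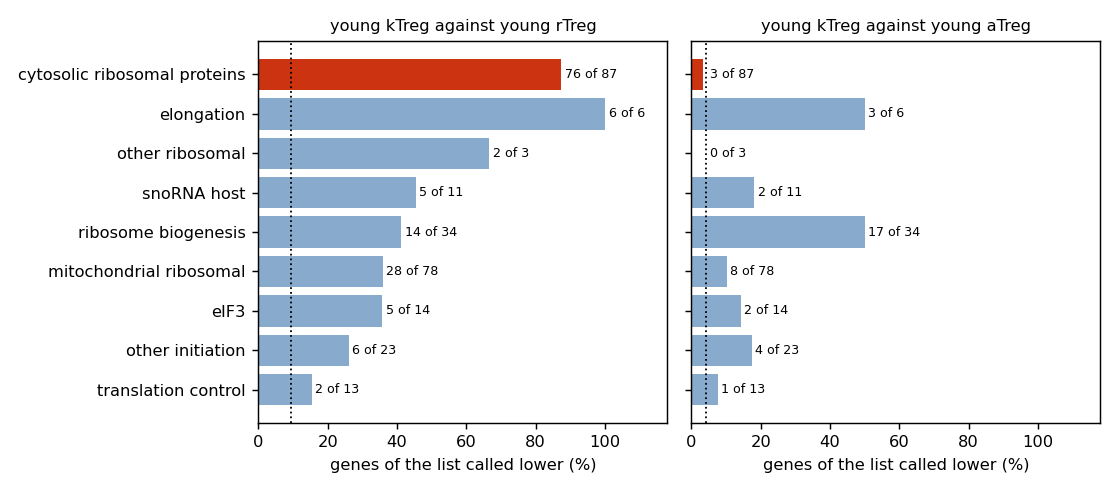
Percentage of the tested genes of each list called lower (x axis, bars from 0, with counts written beside them) in young kTreg against rTreg cells (left) and against aTreg cells (right), with dotted lines for the share of all genes called lower. The ribosomal proteins stand at 76 of 87 on the left and at 3 of 87 on the right, where 17 of 34 ribosome biogenesis genes were called.

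In old mice some genes of these lists were called too. In kTreg against rTreg cells, where 3.84% of all genes fell, 3 of 6 elongation factors (Eef1g, -0.64 ± 0.131; Eef1b2, -0.61 ± 0.186; Eif5a, -0.49 ± 0.134), Rack1 (-0.60 ± 0.19), 2 of 14 eIF3 subunits and 4 of 34 biogenesis genes (among them Npm1, -0.58 ± 0.135) fell. The 1 of 23 other initiation factors (the cap-binding protein gene Eif4e, -0.48 ± 0.113) and 1 of 78 mitochondrial ribosomal proteins that fell were near or below that share. In kTreg against aTreg cells, where 1.03% of all genes fell, 1 of 6 elongation factors (Eef1g, -0.51 ± 0.131), 1 of 34 biogenesis genes (Npm1, -0.54 ± 0.135) and 2 of 78 mitochondrial ribosomal proteins fell. Between old and young rTreg cells, where 2.16% of all genes fell, the counts were 1 of 6 elongation factors (Eef1a1, -0.41 ± 0.111), 1 of 14 eIF3 subunits (Eif3e, -0.46 ± 0.135), 2 of 23 other initiation factors (Eif5b and Eif1b) and 2 of 34 biogenesis genes (Npm1, -0.52 ± 0.135, and Nolc1, -0.52 ± 0.122), and no gene of the other 4 lists fell.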

How the data were processed

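RNA of FACS-sorted splenic Treg subsets was amplified with SMART-Seq V4 and sequenced as bulk libraries. Per the submitters' processing notes and the study's methods, HISAT2 2.2.1 (GRCm39), SAMtools 1.13, HTSeq 1.99.2 and DESeq2 1.44.0 were used. The annotation release, strand use and the treatment of multimapped reads are not given in the sources used here. The deposited values are a signal that the authors made by dividing read counts by DESeq2 size factors, and whole reads were recovered from them within 0.001. GENCODE M39 named 17353 of 17464 identifiers. The members and lists were chosen with earlier results of these data known.

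limma 3.58.1 (R 4.3.3) with a mean-variance trend was fitted to log2(value + 1) of 16630 genes with 6 group means and no block. All tests were two-sided with Benjamini-Hochberg adjustment over all genes tested. The p-values measure the spread between mice within a group, pooled over the 6 groups. They treat the 3 libraries of a mouse as independent and do not measure the spread of differences within mice. A fit with the mouse as a block was among the alternatives. The fit was checked on simulated data. Members named with values were up to 3 called members per comparison and direction, taken by p, copies with their canonical gene, Rplp0, Rplp1, Rplp2, Rpsa, 11 members with roles in signalling or apart from the ribosome, and the highest 3 and lowest 3 by level per kb of exon. From each other list the genes with the smallest p were named. Some genes that the rule names are not reported here. The other members listed by symbol were named after their values were seen. The pairing comes from the series' design, in which each mouse gave all 3 subsets. Deviations from the group means correlated within mice at medians of 0.091 to 0.153 between subsets, against -0.051 to -0.033 between mice. edgeR 4.0.16 and DESeq2 1.42.0 on recovered reads were among the alternatives. PCR reads without molecular identifiers are not independent molecules, so depth describes counting error only.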

Additional observations from a re-analysis of the deposited data

Results flagged for a closer look

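In a group of 4 libraries a value was singled out when its gap to the nearest other library, divided by the range of the group, was above Dixon's 95% critical value for 4 samples. Of 204 groups looked at, for 33 members and the read share, 19 were singled out, and chance gives about 1 in 20. The members share libraries and vary together, so these are not independent.

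In old rTreg cells replicate 3 stood apart with the highest values of Rpl13a (2151), Rpl3 (14390), Rpl36al (3362), Rpl39 (2017), Rpl39l (21.5) and Rps27a (1443), and replicate 2 had Rps4l at 0. In old aTreg cells replicate 2 stood apart with the highest Rpl23 (1963), Rpl23a (2682), Rpl28 (270.7), Rpl5 (4320) and Rps27 (664). In old kTreg cells replicate 2 had the lowest Rpl38 (437), Rplp2 (1424) and Rps3a1 (6860). In young kTreg cells replicate 4 had the highest Rpl22 (1902) and Rpl38 (1441). In young rTreg cells replicate 4 had the lowest Rpl3 (12540) and replicate 3 the highest Rps4l (98.9).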

How the results depend on the processing

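With 4 mice a group, a call rests on few libraries. When single libraries were left out, 62 to 80 members were called in young kTreg against rTreg cells and 1 in aTreg cells with age. The other ranges were 1 to 15 (young kTreg against aTreg), 0 to 22 (young aTreg against rTreg), 0 to 2 (old kTreg against aTreg), 1 to 26 (old kTreg against rTreg), 0 to 1 (old aTreg against rTreg), 1 to 55 (rTreg with age), 0 to 1 (kTreg with age), and for the interactions 0 to 0, 0 to 5 and 0 to 4. Low levels limit Rps4l and Rpl39l.

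In the order of the report's comparisons, further counts that moved by over 1.5 times were these. With a pseudocount of 5 they were 1 for kTreg with age and 1 for the aTreg against rTreg interaction. With a filter at 50, and with the replicate block of the mouse, they were 5 for young kTreg against aTreg and 1 for that interaction. The pairing block changed no other count by that much. With only the groups compared, they were 27 (young aTreg against rTreg), 16 and 2 (old kTreg against aTreg and rTreg) and 1 (rTreg with age). Of all 16630 genes, 368, 626, 547 and 129 were called lower in these fits. The shares of all genes in the results belong to the main fit and not to these alternatives. edgeR gave 8 for rTreg with age. DESeq2 gave 7 (young kTreg against aTreg), 19 (young aTreg against rTreg), 8 and 22 (old kTreg against aTreg and rTreg), 1 (kTreg with age) and 1 (the aTreg against rTreg interaction). An adjusted p with a fold above 1.5 gave 1 and 0 for young and old kTreg against aTreg. An unadjusted p with that fold gave 11 (young kTreg against aTreg), 40 (young aTreg against rTreg), 19 and 25 (old kTreg against aTreg and rTreg), 30 (rTreg with age), 6 (kTreg with age), and 11 and 20 (kTreg and aTreg against rTreg interactions). The cause was not tested.

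Scaling to equal medians of the members removes their common change by construction. Counts were then 0 and 10 (young kTreg against aTreg and rTreg), 0 (young aTreg against rTreg), 0 and 0 (old kTreg against aTreg and rTreg) and 3 (rTreg with age). The medians became -0.0644, -0.0684 and -0.0038 in the young comparisons, 0.063 and 0.0834 in old kTreg against aTreg and rTreg, -0.012 for rTreg with age and 0.024 for the aTreg against rTreg interaction. The kTreg against rTreg interaction went from 0.485 to 0.145, the kTreg against aTreg interaction from -0.0786 to 0.0973 and kTreg with age from -0.0229 to 0.136. Genes called lower turned positive: in young kTreg against rTreg Rplp1 (0.079), Rpl22 (0.0958), Rps3 (0.0178), Rpsa (0.0258), Rpl11 (0.198) and Rpl13a (0.0924), in young aTreg against rTreg Rpl4 (0.0625) and Rpl3 (0.0723), in old kTreg against aTreg Rpl4 (0.0672) and in old kTreg against rTreg Rpl4 (0.0579) and Rps4x (0.0027). The read shares moved by less than 1 SD under all alternatives.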
